A study of Mus musculus with 2 samples.

Results

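The mitochondrial SLC25 carriers are the transport proteins of the inner mitochondrial membrane. They were taken here as all genes that the array names Slc25a with a number, together with Ucp2 and Ucp3, which are SLC25 proteins kept under an older name. This gave 34 genes with 57 probes, of 28785 gene names on the array, and 32 of them were measured. The RNA came from tumours that C57BL/6 mice carried under the skin after an injection of Panc02, a line of pancreatic cancer cells from the mouse. One group lived in an enriched environment, which generally means a cage with more space, objects and company, and the other in a standard environment, both from 3 weeks of age and for 5 weeks after the cells were injected. Every mouse of both groups carried the tumour graft, and the housing was the only difference the labels give. Tumour RNA of 6 mice was pooled per housing and hybridised to 1 one-colour Agilent array per pool, so no spread between mice was measured, no test was possible, and each value describes these 2 pools only.

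Each carrier moves its own substrates, such as ADP and ATP, phosphate, carboxylic acids, amino acids, cofactors or iron, across a membrane that is otherwise closed to them. Most carriers work as exchangers, so that the matrix stays in balance with the cytosol while fuels enter and ATP leaves. Several substrates have more than one carrier gene, with one copy used mostly in tissues of high respiration such as heart, skeletal muscle or brown fat and another used more widely. Uncoupling proteins belong to the same family, and Ucp1 is known for letting protons back into the matrix of brown fat cells to make heat.

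Levels are given as log2 intensity after the 75th percentile of the same array was taken off. Differences are the enriched minus the standard environment level, so that a negative value means lower in the enriched environment pool. The error after ± is that of the scanner software's own error model, carried through to the difference. It covers the reading of the spots and not the spread between mice. Genes were counted from a difference of 2-fold, or 1 on the log2 scale. Over all measured genes 9.46% were at least 2-fold lower and 5.71% at least 2-fold higher. Every count of a list or group below is to be read beside these shares. In bulk tumour RNA, fewer cells of a type and less RNA per cell cannot be told apart.

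The upstream sequences of 4 genes that stand out in the results are printed. They are the ADP/ATP carriers Slc25a4 and Slc25a5, whose differences between the pools lay -3.96 ± 0.25 apart, and Ucp3 and Slc25a12. Ucp3 and Slc25a12 lay, with Slc25a4, furthest down among the 32 measured members. Whether these sequences bear on the differences was not tested. Each run is the 250 bases before the annotated start, 5′ to 3′, from RefSeq on GRCm38.p6, and capitals mark every match to CANNTG, the E-box that muscle regulatory factors and many other factors can bind. Slc25a4 lies at chr8:46211063-46211312 on the minus strand, Slc25a5 at chrX:36795347-36795596 on the plus strand, Ucp3 at chr7:100472741-100472990 on the plus strand and Slc25a12 at chr2:71367756-71368005 on the minus strand.
Slc25a4: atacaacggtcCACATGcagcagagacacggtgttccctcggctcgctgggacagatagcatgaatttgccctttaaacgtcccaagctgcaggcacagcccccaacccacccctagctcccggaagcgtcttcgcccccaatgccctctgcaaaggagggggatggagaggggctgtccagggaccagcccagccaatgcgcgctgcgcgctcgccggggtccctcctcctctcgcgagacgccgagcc
Slc25a5: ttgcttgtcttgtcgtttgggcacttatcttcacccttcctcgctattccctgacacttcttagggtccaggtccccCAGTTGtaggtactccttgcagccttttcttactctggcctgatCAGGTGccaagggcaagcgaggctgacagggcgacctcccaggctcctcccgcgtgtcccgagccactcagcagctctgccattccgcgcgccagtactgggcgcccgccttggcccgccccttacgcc
Ucp3: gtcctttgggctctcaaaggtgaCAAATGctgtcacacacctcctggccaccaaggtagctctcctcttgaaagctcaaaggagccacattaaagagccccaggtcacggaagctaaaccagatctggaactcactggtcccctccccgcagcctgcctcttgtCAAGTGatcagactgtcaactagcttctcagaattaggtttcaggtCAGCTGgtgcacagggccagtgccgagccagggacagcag
Slc25a12: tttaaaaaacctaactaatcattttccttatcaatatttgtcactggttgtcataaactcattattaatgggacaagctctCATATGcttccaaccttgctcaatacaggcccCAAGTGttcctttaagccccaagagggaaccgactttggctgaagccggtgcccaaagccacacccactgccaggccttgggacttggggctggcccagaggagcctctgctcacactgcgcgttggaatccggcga

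The window of Slc25a4 held 1 match, those of Slc25a5 and Slc25a12 held 2 each and that of Ucp3 held 3. CANNTG reads the same on both strands, and 66.2% of 32851 windows of this length in the mouse table held it. Over the family, 27 genes were matched to the table with 36 windows, of which 26 held an E-box. The other motifs were searched on both strands. The estrogen-related receptor site AAGGTCA was in 1 of the 36 windows and in 4.08% of all windows, the TATA box TATAAA in 2 and in 12.4%, the palindromic NRF1 motif in 2 and in 3.74%, and the MEF2 site CTAAAAATA in 0 and in 0.469%. None of these 4 motifs was in the 4 printed windows, which says only that these letters are not there.

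Transcripts of the family were lower in the enriched environment pool for a minority of carriers and nearly level for the rest. Of the 32 measured members, 10 were at least 2-fold lower, where 9.46% of all 20852 measured genes were, and 1 was at least 2-fold higher, where 5.71% of all genes were. The 3 members that were at least 4-fold lower, a distance reached by 3.09% of all genes, were Slc25a4, Ucp3 and Slc25a12. The median difference of the members was -0.37, against 0.03 over all genes, with 20 members below 0 and 12 above. For 12 members the difference was smaller than 2 errors. The carriers together made up 0.165% of the summed signal in the enriched and 0.661% in the standard environment pool. That sum weighs bright probes most and does not describe the typical carrier. The 2 probes of Slc25a4 were the brightest of the family in the standard environment pool, at 8.38 and 7.19.

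Marker genes of other tissues differed between the same pools. All 20 skeletal muscle markers, among them Ckm, the muscle creatine kinase, and Mb, which encodes myoglobin, were lower in the enriched environment pool, with differences from -8.56 to -3.08 and a median of -7.67. They made up 0.108% of the summed signal there and 5.00% in the standard environment pool. The 7 measured brown adipocyte markers had a median of -5.91 and made up 0.0038% of the signal in the enriched and 0.260% in the standard environment pool. Whether all of these read brown fat alone, or some also the muscle in the pools, was not tested. The 5 measured erythroid markers had a median of -5.45, with 0.0043% in the enriched and 0.196% in the standard environment pool. All 11 carcinoma epithelium markers were higher, by 1.51 to 2.43, and the 10 proliferation markers were higher by 0.32 to 0.99. Whether the epithelium markers read the Panc02 cells alone, or also epithelium of the host, was not tested. White adipocyte markers had a median of 1.92 and leukocyte markers one of 0.13. Of the 9 fibroblast markers 3 were at least 2-fold lower and 4 at least 2-fold higher, from -1.18 for Pdgfrb, a growth factor receptor, to 2.96 for the collagen gene Col3a1. The part of these tissues in the carrier differences was not tested.

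**Figure D1:**
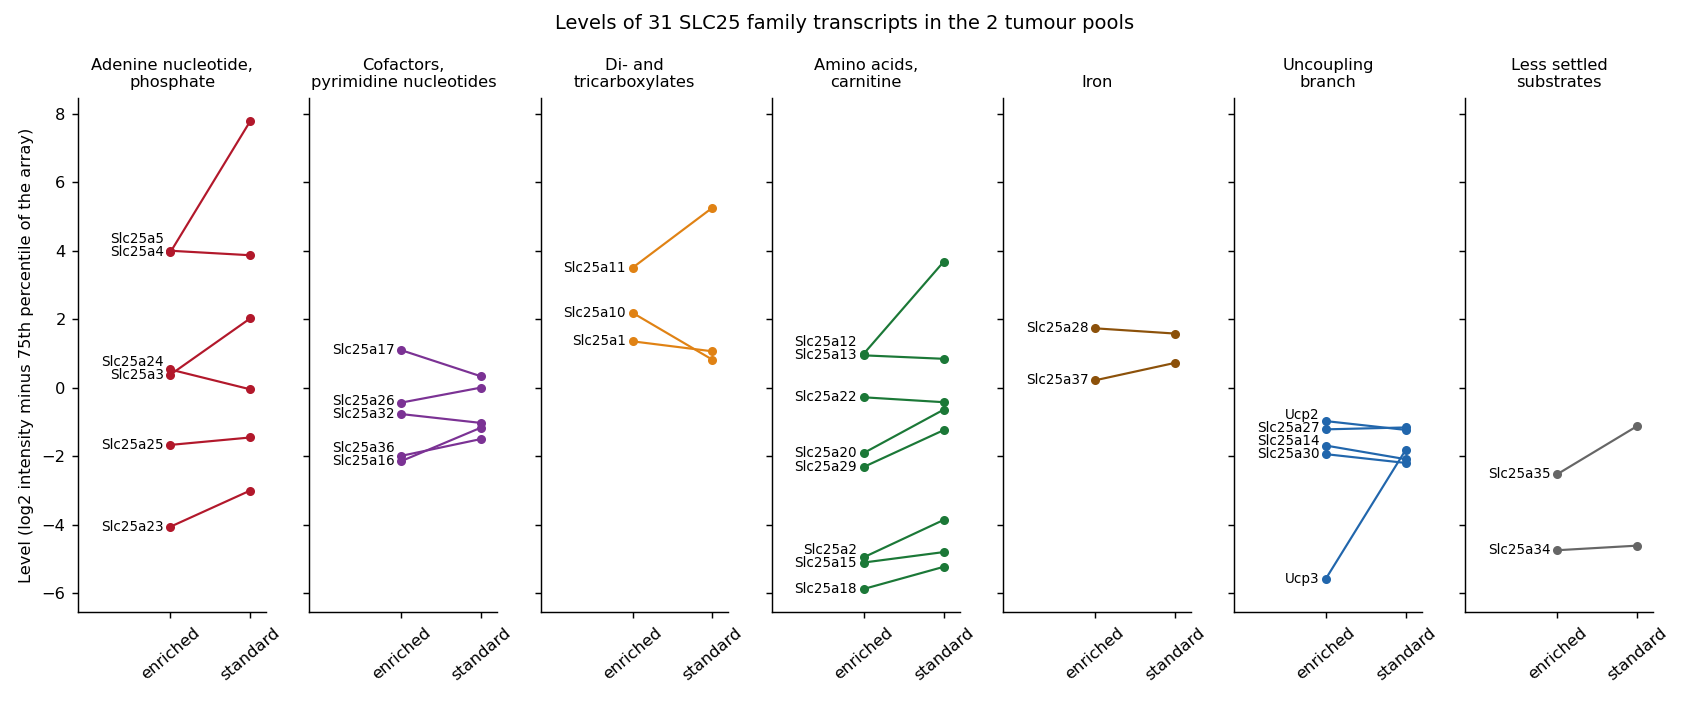
Level of 31 carriers (log2 intensity, scaled to the 75th percentile of the same array) in the enriched environment pool, left, and the standard environment pool, right, with 1 panel for each kind of substrate and 1 line per gene. Steep lines, such as those of Slc25a4, Slc25a12 and Ucp3, stand beside nearly flat ones in the same panel, and levels of different genes cannot be set against each other because their probes differ.

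The adenine nucleotide and phosphate carriers, through which ATP leaves the matrix and ADP and phosphate enter, included the furthest of the 32 measured members. Slc25a4, the ADP/ATP carrier of heart and skeletal muscle, was at 3.95 in the enriched and at 7.79 in the standard environment pool, a difference of -3.83 ± 0.14 or 14.2-fold lower. Its 2 probes gave -3.72 and -3.94. Slc25a5, the ADP/ATP carrier typical of dividing cells, was at 4.00 in the enriched and at 3.87 in the standard environment pool, a difference of 0.13 ± 0.20 that lay within its error. Of the measured ADP/ATP carriers, one was thus far below its standard environment level and the other was nearly level between the pools. Slc25a31, the ADP/ATP carrier of the testis, was not well above background on either array. In the array's design, on build mm7, one Slc25a4 probe covers 44985343 to 44985402 of chromosome 8 and the other 44986956 to 44987015, and the Slc25a5 probe covers 31558243 to 31558302 of chromosome X.

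The phosphate carrier Slc25a3 gave a different answer for each of its 3 probes. The probe on chromosome 10 from 90680977 to 90681034 was at -1.47 in the enriched and at 2.71 in the standard environment pool, a difference of -4.19 ± 0.20. The probe from 90679368 to 90679427 was at -1.20 in the enriched and at -1.26 in the standard environment pool, a difference of 0.07 ± 0.20. The probe designed on the RefSeq transcript, which spans 90676988 to 90677529 across an exon junction, was at 3.80 in the enriched and at 4.62 in the standard environment pool, a difference of -0.82 ± 0.20. All positions are on mm7, and the gene runs on the minus strand. The transcript of Slc25a3 is known to carry 1 of 2 alternative exons, one of which is typical of heart and skeletal muscle. Which exon each probe reads was not determined here. The range of 4.25 between its probes was reached by 14 of 6608 genes with several probes, or 0.212%. The mean over the probes was -1.65 (SD between probes 2.24), which passed 2-fold, whereas the brightest probe alone, at -0.82, did not.

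The calcium-regulated carriers that exchange ATP-Mg for phosphate differed among themselves. Slc25a23 was at -4.07 in the enriched and at -3.01 in the standard environment pool, a difference of -1.06 ± 0.22. With normexp background correction, which models the background in place of the scanner software's subtraction, it no longer passed 2-fold, at -0.68, nor did it with the unsubtracted signal, quantile normalization or the deposited log2 table. Slc25a24 was at 0.53 in the enriched and at -0.05 in the standard environment pool, a difference of 0.58 ± 0.15, with probes at 0.45 and 0.71. Slc25a25 differed by -0.22 ± 0.12, and its 3 probes lay on both sides of 0, from -0.59 to 0.20. Of the 6 measured members of the nucleotide and phosphate group, 3 were at least 2-fold lower, counting Slc25a3, and 0 at least 2-fold higher.

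Genes that work beside these carriers included forms from muscle and forms from other tissues. In a list of 11 porin, creatine kinase and adenylate kinase genes and the pore regulator Ppif, 10 were measured, of which 4 passed 2-fold downward and 0 upward, and the median was -0.59. Ckmt2, the mitochondrial creatine kinase of striated muscle, was at -2.08 in the enriched and at 7.03 in the standard environment pool, a difference of -9.11. Ckmt1, the form found widely outside muscle, was higher by 0.93. The adenylate kinase gene Ak1 differed by -4.51, and the outer membrane channel genes Vdac1 and Vdac3 by -1.63 and -1.41.

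**Figure D2:**
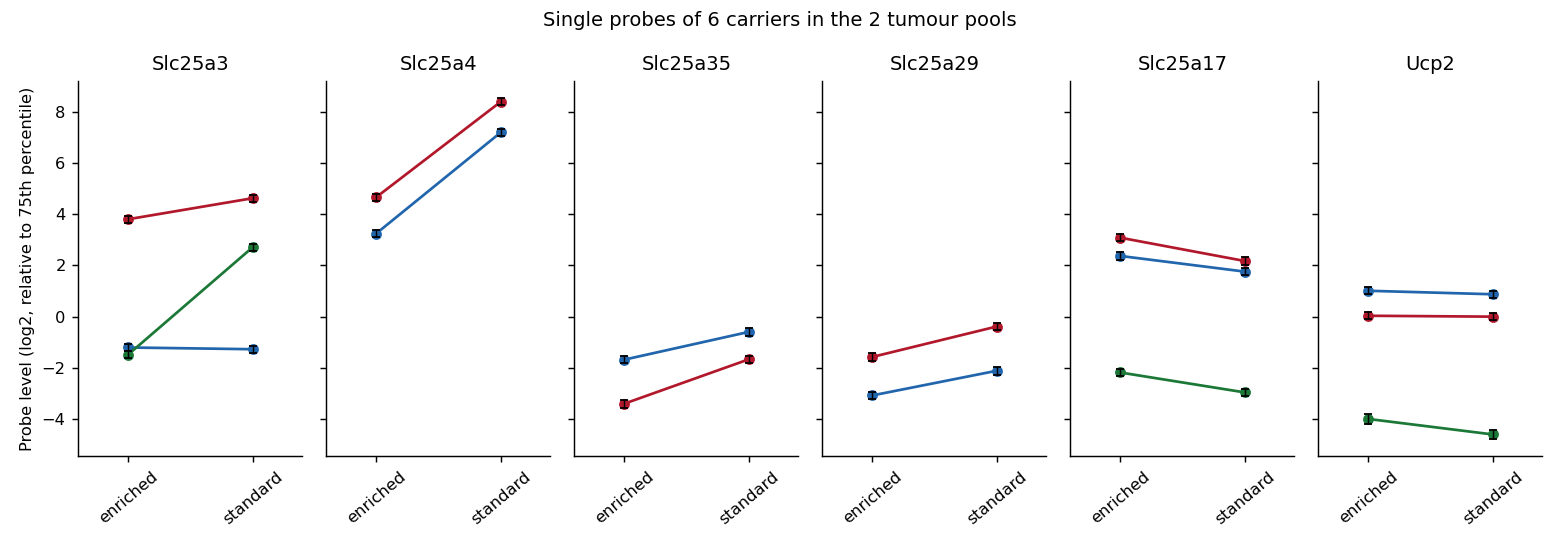
Level of each probe (log2 intensity, scaled to the 75th percentile of the same array) in the enriched environment pool, left, and the standard environment pool, right, for 6 carriers with several probes, with bars for the error of the scanner's error model, shared equally between both levels of a probe. The probes of Slc25a4 run in parallel, while those of Slc25a3 range from -4.19 to 0.07 in their differences.

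Among amino acid and carnitine carriers, 4 of 8 were at least 2-fold lower and 0 higher, with a median of -0.86. Slc25a12, also called aralar, brings glutamate and a proton into the matrix in exchange for aspartate and is a step of the malate-aspartate shuttle. It was at 0.99 in the enriched and at 3.68 in the standard environment pool, a difference of -2.69 ± 0.20 or 6.44-fold lower. Slc25a13, or citrin, does the same exchange in liver and other tissues and was at 0.95 in the enriched and at 0.84 in the standard environment pool, a difference of 0.10 ± 0.20. One aspartate-glutamate carrier was thus past 2-fold and the other within its error. The Slc25a12 probe covers 71118632 to 71118691 of chromosome 2 (mm7).

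The carrier of fatty acids bound to carnitine and 2 carriers of basic amino acids, Slc25a29 and Slc25a2, passed 2-fold by smaller amounts. Slc25a20, which exchanges acylcarnitine for carnitine so that fatty acids can be oxidised, was at -1.91 in the enriched and at -0.64 in the standard environment pool, a difference of -1.27 ± 0.20 or 2.41-fold lower. Slc25a29, a carrier of basic amino acids that the array still describes as a palmitoylcarnitine carrier, differed by -1.08 ± 0.15, with probes at -0.96 and -1.19, and by -0.92 with normexp background correction. The ornithine carrier Slc25a2 was at -4.96 in the enriched and at -3.87 in the standard environment pool, a difference of -1.09 ± 0.26. That value was -0.56 with normexp background correction and also under 2-fold with the unsubtracted signal, quantile normalization and the deposited log2 table. The other ornithine carrier, Slc25a15, was at -5.11 in the enriched and at -4.81 in the standard environment pool, a difference of -0.31 ± 0.30. These ornithine carriers were dim, since the lowest level well above background was -6.21 on the enriched and -5.68 on the standard environment array. The glutamate carriers Slc25a22 and Slc25a18 differed by 0.14 ± 0.20 and -0.65 ± 0.42, both within 2 errors.

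Enzymes on either side of these carriers were taken from 3 lists. In the list of malate-aspartate, citrate and glycerophosphate shuttle enzymes, 6 of 11 were at least 2-fold lower, 0 were higher and the median was -1.43. The aspartate aminotransferases Got1, in the cytosol, and Got2, in the matrix, differed by -3.23 and -1.67, the malic enzyme gene Me3 by -3.13, and the mitochondrial malate dehydrogenase gene Mdh2 by -1.67. In the list of carnitine and acyl-CoA entry genes, 2 of the 11 genes measured passed 2-fold downward and 0 upward. They were Cpt1b, the carnitine palmitoyltransferase of muscle, at -4.97 and Crat, the carnitine acetyltransferase, at -2.37, while Cpt1a, the form of liver and many other tissues, differed by 0.55. In the list of ornithine and amino acid enzymes 1 of 10 measured genes was at least 2-fold lower, Bckdha at -1.35. Another 1 was at least 2-fold higher, Arg1, an arginase of liver and of some macrophages, at 1.77. Over all genes 9.46% were that much lower and 5.71% that much higher, so these counts do not set the list apart.

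The carboxylic acid carriers held both the only member that was at least 2-fold higher and one that was at least 2-fold lower. Slc25a10, the dicarboxylate carrier that exchanges malate or succinate for phosphate, was at 2.19 in the enriched and at 0.82 in the standard environment pool, a difference of 1.37 ± 0.20 or 2.59-fold higher. Slc25a11 exchanges oxoglutarate for malate, which is another step of the malate-aspartate shuttle. It was at 3.50 in the enriched and at 5.26 in the standard environment pool, a difference of -1.76 ± 0.20 or 3.38-fold lower. The citrate carrier Slc25a1, which exports citrate for lipid synthesis, differed by 0.29 ± 0.20. Slc25a11 and Slc25a12, which serve the malate-aspartate shuttle, were thus both among the lower members, while the dicarboxylate carrier was higher. Slc25a13, which does the same exchange as Slc25a12, was nearly level between the pools, at 0.10 ± 0.20. Slc25a21, the carrier of longer oxodicarboxylates, was not well above background on either array with either of its 2 probes. Both genes are on chromosome 11, where the Slc25a10 probe covers 120608056 to 120608115 and the Slc25a11 probe 70725811 to 70725870 (mm7).

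**Figure D3:**
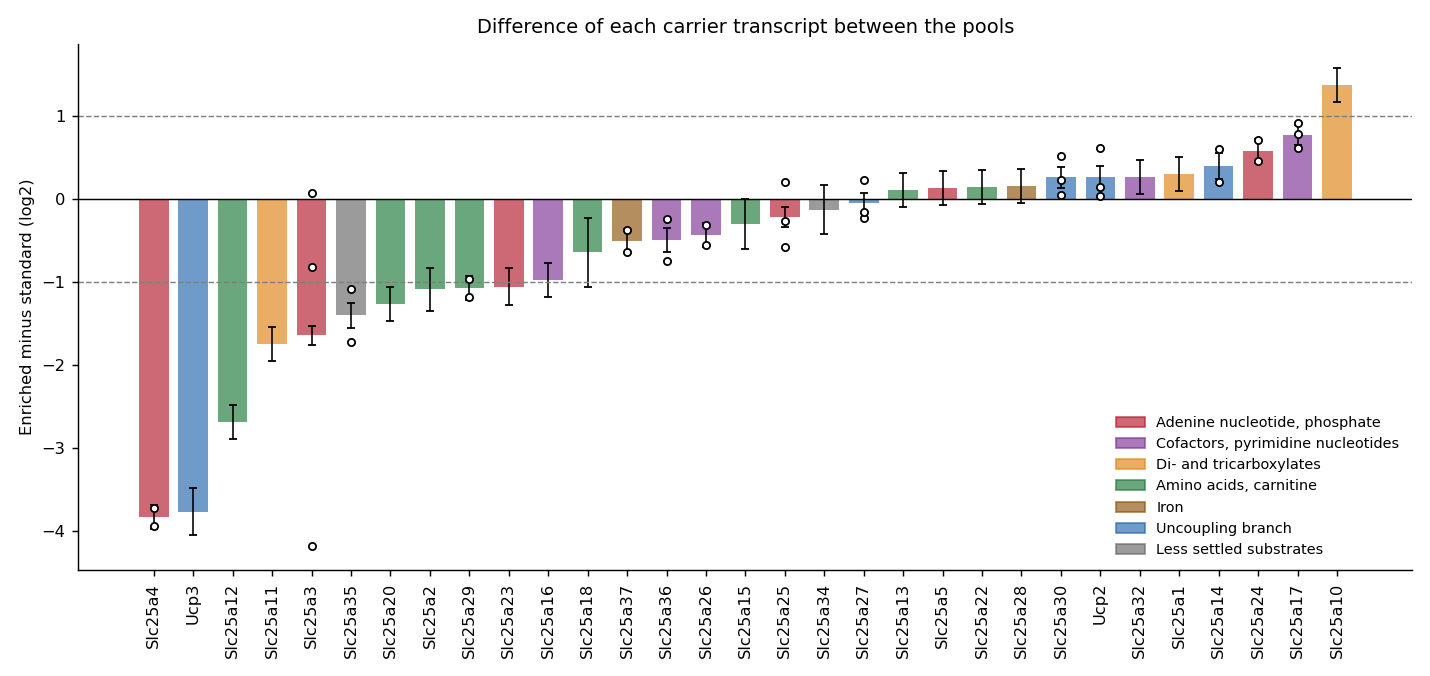
Difference of 31 carriers (enriched minus standard environment pool, log2), ordered by size and coloured by substrate, with the error of the scanner's error model as bars, the single probes as open circles where there were several, and the 2-fold limits as dashed lines. Slc25a4 at -3.83, Ucp3 at -3.77 and Slc25a12 at -2.69 stand apart at the left, and Slc25a10 at 1.37 is the only bar above the upper limit.

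In the uncoupling protein branch, 1 of 5 members was at least 2-fold lower. Ucp3, the uncoupling protein of skeletal muscle and brown fat, was at -5.58 in the enriched and at -1.81 in the standard environment pool, a difference of -3.77 ± 0.29 or 13.6-fold lower. The enriched level lay near the lowest level well above background on that array, and the difference was -2.10 with normexp background correction. Ucp2, found widely in immune and other cells, was at -0.98 in the enriched and at -1.23 in the standard environment pool, a difference of 0.26 ± 0.13, with 3 probes from 0.03 to 0.60. The 2 genes are neighbours on chromosome 7, where the Ucp3 probe lies from 96532023 to 96532082 and the Ucp2 probes between 96543013 and 96547281 on mm7. The carriers Slc25a14, Slc25a27 and Slc25a30, first described in brain or kidney, differed by 0.40 ± 0.16, -0.06 ± 0.12 and 0.26 ± 0.13. Ucp1, the family's heat-making protein, differed by -8.86, further than any of the 32 measured members. It is not one of them and is counted here among the brown adipocyte markers.

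Carriers of cofactors and pyrimidine nucleotides held no member past 2-fold in either direction, among 6 measured. Slc25a16, which has been linked to the entry of coenzyme A, was nearest, at -2.15 in the enriched and at -1.16 in the standard environment pool, a difference of -0.98 ± 0.21. Slc25a17, which sits in peroxisomes and not in mitochondria, differed by 0.77 ± 0.12, with all 3 probes between 0.61 and 0.91. Its brightest probe was at 3.09 in the enriched and at 2.18 in the standard environment pool. The S-adenosylmethionine carrier Slc25a26, the pyrimidine nucleotide carrier Slc25a36 and the folate and flavin carrier Slc25a32 differed by -0.44, -0.49 and 0.26. Of 9 measured folate and thiamine enzymes 2 were at least 2-fold lower, the oxoglutarate dehydrogenase gene Ogdh at -1.85 and the pyruvate dehydrogenase gene Pdha1 at -1.67.

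Both mitoferrins, which bring iron into the matrix for haem and iron-sulphur clusters, stayed within 2-fold. Slc25a37, or mitoferrin 1, which red cell precursors need, was at 0.21 in the enriched and at 0.72 in the standard environment pool, a difference of -0.51 ± 0.15, beside the median of -5.45 in the erythroid markers. Slc25a28, or mitoferrin 2, found more widely, was at 1.74 in the enriched and at 1.58 in the standard environment pool, a difference of 0.15 ± 0.20. In the list of iron-sulphur, haem and glutathione enzymes, 5 of 15 were at least 2-fold lower, Isca1 at -1.80 and Prdx3 at -1.63 being the lowest.

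Of the carriers whose substrates are less settled, Slc25a35 was at -2.53 in the enriched and at -1.13 in the standard environment pool, a difference of -1.41 ± 0.15. Its probes gave -1.73 and -1.08. The second of these is described on the array by a cDNA named for a nuclear import factor, and which gene it reads was not determined here. The first probe alone was also past 2-fold. Slc25a34 differed by -0.13 ± 0.29, within its error.

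Related carriers were set side by side in 8 pairs, which were chosen with their values known and are therefore a description only. In each of the 8 pairs the gene named first had the lower difference, and in 6 of them by clearly more than 2 errors. The order within each pair was also set with the values known, so the shared direction is not a result. The glutamate carriers lay within 2 errors, and the ornithine carriers, at -0.79 ± 0.39, just at that limit and at -0.25 with normexp background correction. The first minus the second difference was -3.96 ± 0.25 for Slc25a4 and Slc25a5, -3.13 ± 0.29 for Slc25a11 and Slc25a10 and -2.79 ± 0.29 for Slc25a12 and Slc25a13. For Ucp3 and Ucp2 it was -4.03 ± 0.32, but -2.16 with normexp background correction, which put this pair after the other 3 of this size. It was -1.64 ± 0.26 for Slc25a23 and Slc25a24, and from -0.79 to -0.66 for the mitoferrins, the glutamate carriers and the ornithine carriers. Probes of closely related genes can also bind each other's transcripts, which was not tested.

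**Figure D4:**
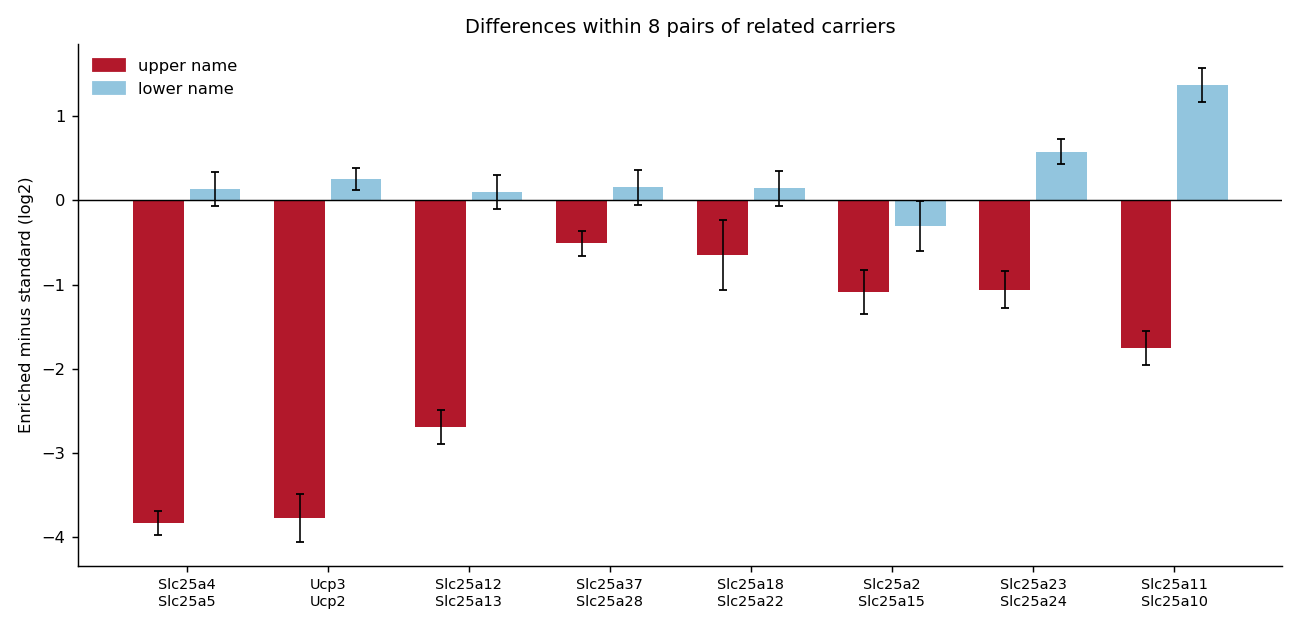
Differences (enriched minus standard environment pool, log2) within 8 pairs of related carriers, with the error of the scanner's error model as bars. The first gene of each pair (upper name) is red and the second (lower name) light blue, and all second genes but Slc25a10 lie within 1 of 0.

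The carriers ran over a wider range of differences than 3 other mitochondrial gene sets. Of the 18 citric acid cycle genes, 14 were at least 2-fold lower, with differences from -2.86 to 0.04 and a median of -1.65. Of the 36 genes named as complex I subunits, 29 were at least 2-fold lower, from -2.09 to -0.54 with a median of -1.44. Of the 75 genes named as mitochondrial ribosomal proteins, 4 were at least 2-fold lower, where 9.46% of all genes were. Their median was -0.37, that of the carriers to this precision, but they ran from -1.34 to 0.31. The 32 carriers themselves, with Ucp1 left out, ran from -3.83 to 1.37. Such a reach was not particular to them. The porin, creatine kinase and adenylate kinase list ran from -9.11 to 0.93, and the carnitine and acyl-CoA entry list from -4.97 to 0.65. With 1 array per pool none of these contrasts between sets was tested. The 19 transporters of the inner membrane outside the family had a median of -0.52, with 3 at least 2-fold lower, among them Mpc2 at -2.04 and Mpc1 at -1.80, which form the pyruvate carrier.

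**Figure D5:**
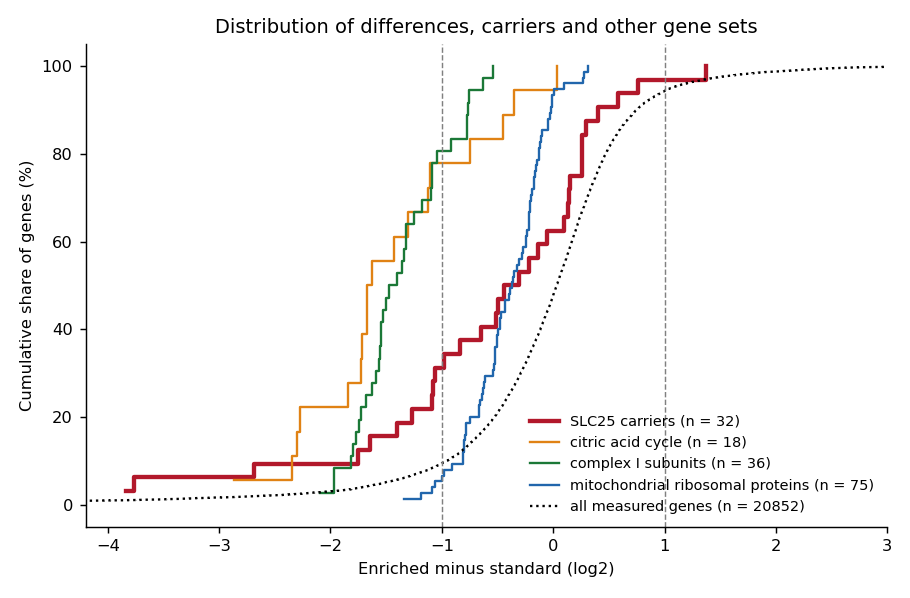
Cumulative share of genes (%) by difference (enriched minus standard environment pool, log2), with dashed lines at 2-fold. Lines show the 32 carriers, 18 citric acid cycle genes and all 20852 measured genes. Others show 36 genes named as complex I subunits and 75 named as mitochondrial ribosomal proteins. The horizontal axis leaves out genes far beyond the carriers on both sides. The carriers start furthest left of the 4 mitochondrial sets, meet the ribosomal proteins near their common median of -0.37 and end furthest right.

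Another 12 carriers are on the array under older names and were found through their RefSeq accession. Their median was -0.33, with 2 at least 2-fold lower and 0 higher, where 9.46% and 5.71% of all genes were. The coenzyme A carrier Slc25a42 was at -4.60 in the enriched and at -3.13 in the standard environment pool, a difference of -1.48, and the pyrimidine nucleotide carrier Slc25a33 was at -2.13 in the enriched and at -0.68 in the standard environment pool, a difference of -1.45. The NAD carrier Slc25a51 differed by -0.83, and the glutathione carriers Slc25a39 and Slc25a40 by -0.18 and 0.28. With these 12 added and Ucp1 left out, 12 of 44 carriers were at least 2-fold lower and 1 at least 2-fold higher.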

How the data were processed

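RNA pooled from the tumours of 6 mice per housing was labelled with Cy3 and hybridised to 1 array per pool, per the labels' protocols. The deposited scanner files hold linear intensity values which Agilent Feature Extraction (10.7.1.1 in the submitters' processing notes) made by detrending each array and subtracting a spatial background, per the file headers, a step that weighs most on dim spots. A second deposited table of log2 values for 30319 probes had no scaling or centring given in the sources used here. It had column medians of 8.56 for the enriched and 8.54 for the standard environment pool, correlated at r = 1.00 across probes with the log2 scanner values of each array, and served as an alternative.

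Processed intensity was taken to log2 and scaled by subtracting each array's 75th percentile, without the 1639 control spots. Spots marked as outliers, 70 on the enriched and 66 on the standard environment array, were left out after this scaling. Of 41161 probes, 30298 were well above background on the 2 arrays and were kept, among them 52 of 57 carrier probes. A gene's value is the mean of its kept probes. No carrier spot was saturated. Gene names were updated through RefSeq accessions on GRCm38.p6, which matched 44 of the 57 carrier probes. Both arrays lie on 1 slide. Any carrier could be named (1 measured carrier is counted but not reported singly here), and up to 6 genes of each other list by size of difference, besides tissue counterparts. Members, lists and pairs were chosen with earlier results of these data known. The difference and threshold steps were checked with known changes put into a copy of the standard environment array. That check covers the arithmetic and not the spread between mice. Python 3.11.15, pandas 2.3.3 and limma 3.58.1 (for normexp background correction, offset 50) were used.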

Additional observations from a re-analysis of the deposited data

How the results depend on the processing

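Of the 11 processing alternatives run, 1 (only probes with a current RefSeq symbol) was chosen after the data had been seen. The number of carriers at least 2-fold lower was 7 of 32 under normexp, where 6.34% of all genes were, 7 of 26 with the upper 75% of levels (8.96%), 10 of 34 with no filter on dim probes (13.2%) and 12 of 44 by current symbol (9.46%). It lay between 7 and 10 in the other alternatives, and the number at least 2-fold higher was 1 in each of the 11. The median difference of the carriers was -0.044 over the 26 carriers with a probe in the upper 75% of levels, where dim carriers are left out by construction, and lay between -0.37 and -0.23 in the other alternatives. Of the 11 carriers past 2-fold, 7 stayed past it in every alternative that measured them and all 11 kept their sign. The exceptions were Slc25a3 (-0.82 with the brightest probe, and with RefSeq probes only), Slc25a2 (-0.56 to -0.94) and Slc25a23 (-0.68 to -0.98) under normexp, the mean signal, quantile normalization or the authors' value table, and Slc25a29 (-0.92 and -0.96) under normexp and the mean signal. The difference of Ucp3 was -2.10 under normexp and -2.28 with the mean signal. Smaller differences under these settings were not particular to Ucp3. The share of all genes at least 2-fold lower was 6.34% under normexp and 6.79% with the mean signal, against 9.46% in the main setting. The cause was not tested. Of the 32 measured carriers, 30 kept their sign in every alternative, and Slc25a27 and Slc25a34, both near 0, did not. No paired analysis was possible because each housing had 1 array. Signal over background limits the dim carriers Slc25a2, Slc25a15, Slc25a18, Slc25a34 and Ucp3, and the number of arrays limits all values.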
